A study of Arabidopsis thaliana with 28 samples.

Results

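Cytochrome P450 transcripts were followed in shoots and roots of Arabidopsis thaliana after UV-B exposure. The genes were taken as every probe set of the array annotated with a single gene whose symbol starts with CYP followed by a digit, which gave 26 of 22746 probe sets. Of these, 24 were P450 genes. The other two, CYP71 and CYP59, were cyclophilins, proline isomerases that share the prefix but are not P450s, and they are counted apart. Among the P450s, 19 belonged to the subfamily CYP71B and 5 to others, namely CYP84A4, CYP79A2, CYP78A9, CYP718 and CYP51G2. By the number in the symbol, 22 belonged to clan 71, CYP718 to clan 85 and CYP51G2 to clan 51. RefSeq holds 241 gene symbols of this form, and the 215 without such a probe set were not analysed here.

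The plants were wild type Col-0, grown on Murashige and Skoog medium with 16 h of light per day. At day 16, when 3 h of light had passed, they received UV-B from Philips TL40W/12 lamps for 15 min at 1.18 W/m2. Shoots and roots were sampled at 7 labelled times, 0.25, 0.5, 1, 3, 6, 12 and 24 h, and each of these 14 groups had 2 of the 28 arrays. All plants were exposed, so each later time was set against 0.25 h of the same tissue, and time after UV-B and hour of the day cannot be told apart. The labels state neither when the counting of hours began nor whether the 2 arrays of a group came from separate cultures. P-values therefore cover the spread among these arrays alone, and that spread may be a technical one.

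P450s are haem enzymes that insert an oxygen atom into small molecules, with electrons passed on by a reductase. In plants they make and break down hormones, sterols, pigments, cell wall units and defence compounds. Clan 71 holds most of the enzymes of plant secondary metabolism, clan 85 is known for steroid and other terpenoid hormone metabolism, and clan 51 for the sterol 14α-demethylase. CYP71B is a large Arabidopsis subfamily in which many genes lie next to each other on the chromosome. The function of most CYP71B enzymes is not described here.

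The values are MAS5 signals, a summary of probe brightness in arbitrary units that shows differences of 1 probe set between arrays and not levels of different genes. Array medians were 36.7 to 39.0 in shoots and 44.3 to 47.4 in roots. The replicate arrays of a group correlated at 0.982 in shoots at 0.25 h, the lowest value, and up to 0.995 in roots at 1 h. Of 14 shoot marker genes looked for, 4 had a probe set of their own, all encoding photosynthesis proteins, and they were higher on every shoot array than on every root array, RCA for one at 3642 to 6797 in shoots and 83.1 to 176 in roots. Of 16 root marker genes, the expansins EXPA7 and EXPA18 had one, and both were higher on every root array than on every shoot array. Changes are differences in log2(signal + 9.58), ± the standard error (SE), where the added 9.58 understates changes of dim probe sets. A change was called when its limma p-value, adjusted by Benjamini-Hochberg over the 14806 probe sets that passed a filter, was below 0.05. The size of a change against a dim signal depends on the number added. A call that ended when 1 array was left out is named beside the gene's values.

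The filter asked that at least 2 of the 28 arrays have a signal above their own median, and 15 P450s and both cyclophilins passed it. CYP71B28, CYP71B29, CYP71B6, CYP71B23, CYP71B26 and CYP71B34 passed on arrays of both tissues. CYP71B22, CYP71B24, CYP71B35, CYP71B36, CYP71B5, CYP78A9 and CYP84A4 did so on shoot arrays alone, and CYP71B37 and CYP718 on root arrays alone. A gene that passed only through the samples in which it was high had to differ between samples, so the counts below describe these 15 genes and not the family. The other 9 lay below the median on all 28 arrays, with signals of 0.168 to 17.004. They were CYP71B16, CYP71B21, CYP71B25, CYP71B27, CYP71B31, CYP71B38, the pseudogene CYP71B30P, CYP79A2 and CYP51G2. CYP79A2 makes phenylacetaldoxime, a precursor of benzylglucosinolate, and its signal was 0.279 to 1.43 in shoots and 0.274 to 0.909 in roots. CYP71B31 oxidises the flower volatile linalool, and its signal was 0.253 to 3.12 in shoots and 0.264 to 5.29 in roots. CYP51G2, a relative of the sterol 14α-demethylase gene CYP51G1, had 0.977 to 8.47 in shoots and 2.004 to 17.004 in roots. No time course of these 9 genes was read at such low signals.

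The most P450s changed in shoots at 3 and 6 h, when most of the probe sets tested were called too. In whole shoots and roots, fewer cells of a type and less RNA per cell cannot be told apart. Of the 15 P450s, 1 was called at 0.5 h in shoots (higher), against 14% of all probe sets. At 1 h, 1 was higher and 3 were lower (26.7% of all called). At 3 h, 5 were higher and 2 lower (51.1%), at 6 h 5 higher and 3 lower (63.2%), at 12 h 4 higher and 1 lower (45.8%), and at 24 h 6 higher and none lower (25.8%). These shares of the 15 lie close to the background or below it, except at 24 h, where 6 of 15 were higher, against 14.4% of all probe sets higher and 11.4% lower. Of those 6 calls, 4 were lost in the omission of some single array, as given for each gene. With no pseudocount the 24 h calls of CYP71B5, CYP71B36, CYP71B24 and CYP71B22 were lost. These genes also passed the filter on shoot arrays alone. The count at 24 h was therefore not read as standing above the background. In roots, 2 P450s were called at 0.5 h (1 higher, 1 lower; 9.74% of all), 2 at 1 h (1 higher, 1 lower; 12.6%), 4 at 3 h (1 higher, 3 lower; 23.2%), 3 at 12 h (1 higher, 2 lower; 21.3%) and 3 at 24 h (3 higher; 14.3%). At 6 h in roots limma called 0 of 15, against 15.8% of all probe sets, and 3 had an unadjusted p under 0.05. Over all times together, the moderated F test called 13 of 15 P450s in shoots (85.8% of all) and 9 of 15 in roots (53.5%), again near the share of all probe sets.

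The median change of the 15 P450s in shoots was 0.31 at 0.5 h, -0.27 at 1 h, 0.12 at 3 h, 0.0047 at 6 h, 0.06 at 12 h and 0.42 at 24 h. Over all probe sets the medians ran from -0.06 to 0.03. In shoots, 8 of the 15 had their lowest mean signal at 1 h, where 15.4% of all probe sets had theirs. The 8 were CYP71B29, CYP71B6, CYP71B22, CYP71B23, CYP71B24, CYP71B36, CYP71B5 and CYP78A9, of which CYP71B6 and CYP71B24 were called as lower at 1 h than at 0.25 h. The CYP71B6 arrays at 1 h overlapped those at 0.25 h. CYP71B23 had 40.1 and 37.9 at 1 h, against 97.5 and 18.01 at 0.25 h. CYP71B22, CYP71B24, CYP71B36, CYP71B5 and CYP78A9 passed the filter on shoot arrays alone. No common fall at 1 h was read from this count. None of the 15 had its lowest mean at 0.5 or 24 h, against 12.3% and 9.07% of all probe sets, shares that amount to few of 15 genes. In roots the median change of the 15 lay between -0.23 at 3 h and 0.23 at 24 h.

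**Figure D1:**
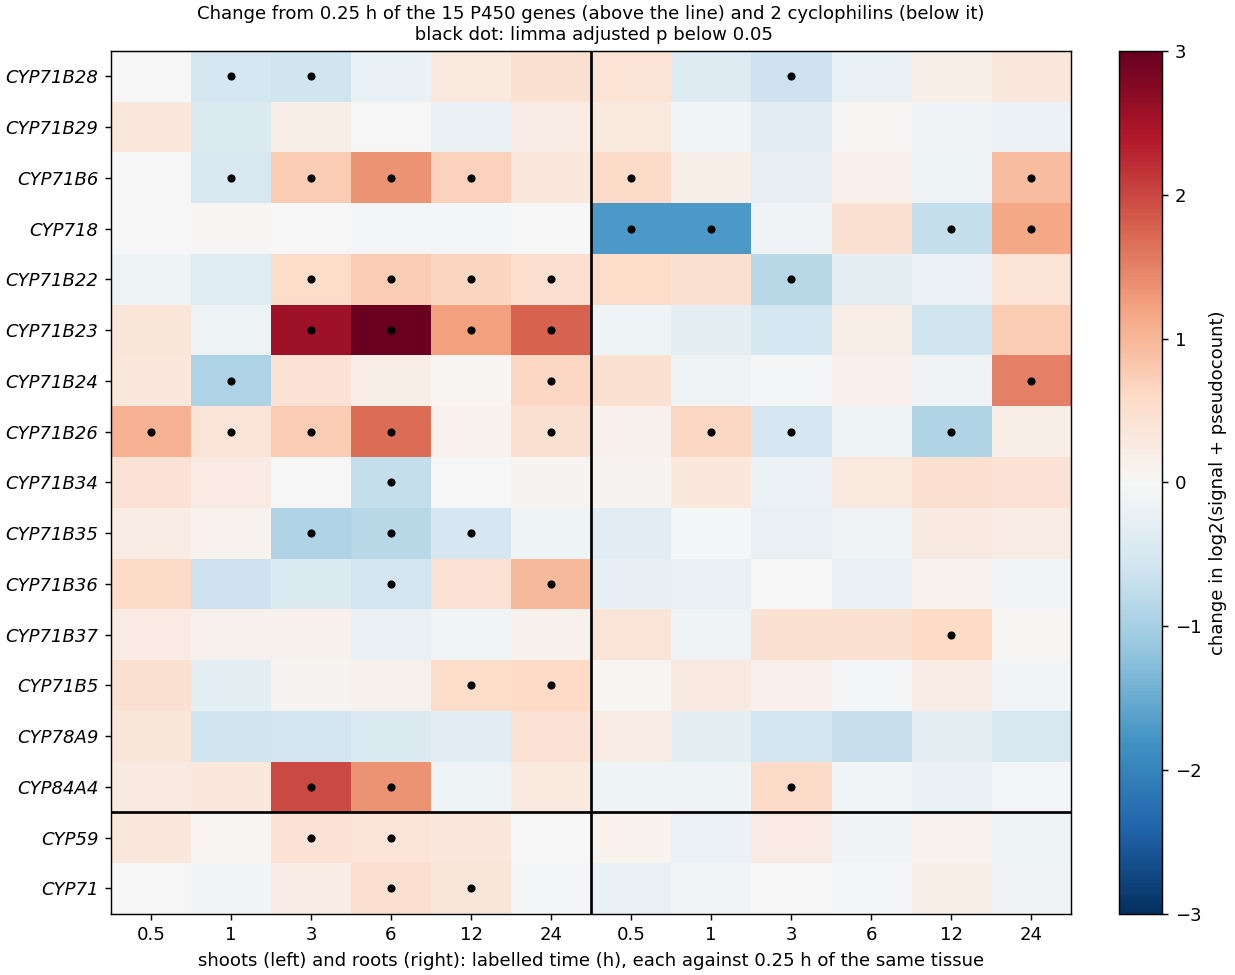
Change in log2(signal + pseudocount) of the 15 P450 genes and 2 cyclophilins at each later time against 0.25 h, in shoots (left 6 columns) and roots (right 6 columns), with a black dot where limma's adjusted p was below 0.05. The darkest red cells are those of CYP71B23 in shoots at 3 and 6 h, and the darkest blue ones those of CYP718 in roots at 0.5 and 1 h.

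CYP84A4 (AT5G04330) makes a catechol used in the synthesis of arabidopyrones, α-pyrone compounds that branch off phenylpropanoid metabolism, and it was the P450 outside CYP71B that rose most. In shoots the signals of CYP84A4 on replicates 1 and 2 were 14.47 and 13.5 at 0.25 h, 19.3 and 18.4 at 0.5 h, 19.8 and 19.7 at 1 h, 93.95 and 73.2 at 3 h, 42.0 and 59.7 at 6 h, 17.7 and 7.62 at 12 h and 19.8 and 19.1 at 24 h. CYP84A4 in roots gave signals of 26.7 and 22.7 at 0.25 h, 22.7 and 21.2 at 0.5 h, 27.9 and 16.5 at 1 h, 40.3 and 42.2 at 3 h, 23.6 and 21.7 at 6 h, 17.7 and 23.4 at 12 h and 26.5 and 20.98 at 24 h. CYP84A4 passed the filter through its 4 shoot arrays at 3 and 6 h only, so it would not have been tested without them. Both shoot arrays at 3 h and both at 6 h lay above all 10 shoot arrays of the other times, and in roots both arrays at 3 h lay above the rest. In shoots it was higher by 1.97 ± 0.20 (adjusted p = 3.04e-08) at 3 h and by 1.34 ± 0.20 (adjusted p = 4.02e-06) at 6 h. In roots it was higher by 0.57 ± 0.20 (adjusted p = 0.0396) at 3 h, a call lost without any 1 of its 4 arrays (adjusted p of 0.0802 to 0.190) and with no pseudocount or no filter. The shoot change exceeded the root change by 1.40 ± 0.28 (adjusted p = 4.33e-04) at 3 h and by 1.43 ± 0.28 (adjusted p = 2.18e-04) at 6 h. At 12 and 24 h it was not called in either tissue.

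CYP71B6 (AT2G24180) turns indole-3-acetonitrile, an indole product of glucosinolate and camalexin metabolism, into indole-3-carboxaldehyde and the matching acid. The shoot arrays of CYP71B6 read 353 and 198 at 0.25 h, 264 and 264 at 0.5 h, 175 and 203 at 1 h, 474 and 442 at 3 h, 699 and 681 at 6 h, 418 and 452 at 12 h and 354 and 307 at 24 h. In roots the signals of CYP71B6 on replicates 1 and 2 were 628 and 562 at 0.25 h, 879 and 908 at 0.5 h, 654 and 692 at 1 h, 485 and 510.3 at 3 h, 602 and 726.3 at 6 h, 542 and 530.3 at 12 h and 1188 and 1082 at 24 h. In shoots both arrays at 6 h were the highest and both arrays at 1 h lay near the lower one at 0.25 h. In roots both arrays at 24 h were the highest. In shoots CYP71B6 was lower at 1 h, with a change of -0.47 ± 0.16 (adjusted p = 0.0309), although its arrays overlapped those at 0.25 h. It was higher by 0.77 ± 0.16 (adjusted p = 3.80e-04) at 3 h, by 1.35 ± 0.16 (adjusted p = 2.49e-07) at 6 h and by 0.69 ± 0.16 (adjusted p = 0.00114) at 12 h. The 2 shoot arrays at 0.25 h differed and moved these values. Without replicate 1 of 0.25 h the changes were -0.07 at 1 h, 1.17 at 3 h and 1.098 at 12 h, and without replicate 2 they were -0.88, 0.36 and 0.29. The call at 1 h was lost without replicate 1 of 0.25 h or replicate 1 of 1 h (adjusted p of 0.185 to 0.737), and that at 12 h without replicate 2 of 0.25 h (adjusted p = 0.0538). The rise at 6 h was called in each of these omissions.

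In roots CYP71B6 was higher by 0.92 ± 0.16 (adjusted p = 3.33e-04) at 24 h. It was also higher by 0.58 ± 0.16 (adjusted p = 0.0218) at 0.5 h, a call lost without any 1 of its 4 arrays (adjusted p of 0.0553 to 0.162). The shoot change of CYP71B6 exceeded its root change by 1.02 ± 0.22 (adjusted p = 0.00124) at 3 h, by 1.20 ± 0.22 (adjusted p = 1.66e-04) at 6 h and by 0.84 ± 0.22 (adjusted p = 0.00774) at 12 h. Without replicate 2 of the 0.25 h shoots these differences were 0.61, 0.79 and 0.44, each still called. Of 28 partner genes of the indole and glucosinolate pathways found in RefSeq, BCAT4 and UGT74B1 had a probe set of their own. UGT74B1, which adds the sugar to the glucosinolate core, had 1239 and 1146 in shoots at 3 h, against 490.3 and 402 at 0.25 h, and was called higher there (1.41 ± 0.14, limma adjusted p = 3.86e-08). It was also higher in shoots at 6 h (0.73, adjusted p = 1.30e-04) and lower at 1 h (-0.70, adjusted p = 6.84e-04) and 24 h (-0.43, adjusted p = 0.0277). BCAT4, which starts the chain elongation of methionine for aliphatic glucosinolates, had 249 and 208 in shoots at 6 h, against 797 and 881 at 0.25 h, and was called lower there (-1.84 ± 0.17, adjusted p = 9.04e-09). It was lower in shoots at 3, 12 and 24 h too (-0.99, -0.62 and -0.63, adjusted p of 5.55e-05, 0.00533 and 0.00885). BCAT4 was also lower in roots at 3 h (-1.55 ± 0.17, adjusted p = 8.07e-07) and 24 h (-0.73, adjusted p = 0.00562). UGT74B1 was called at no single time in roots. Omission of single arrays was not run for these genes. None of 8 genes for the electron donors of P450s had a probe set of its own by name.

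**Figure D2:**
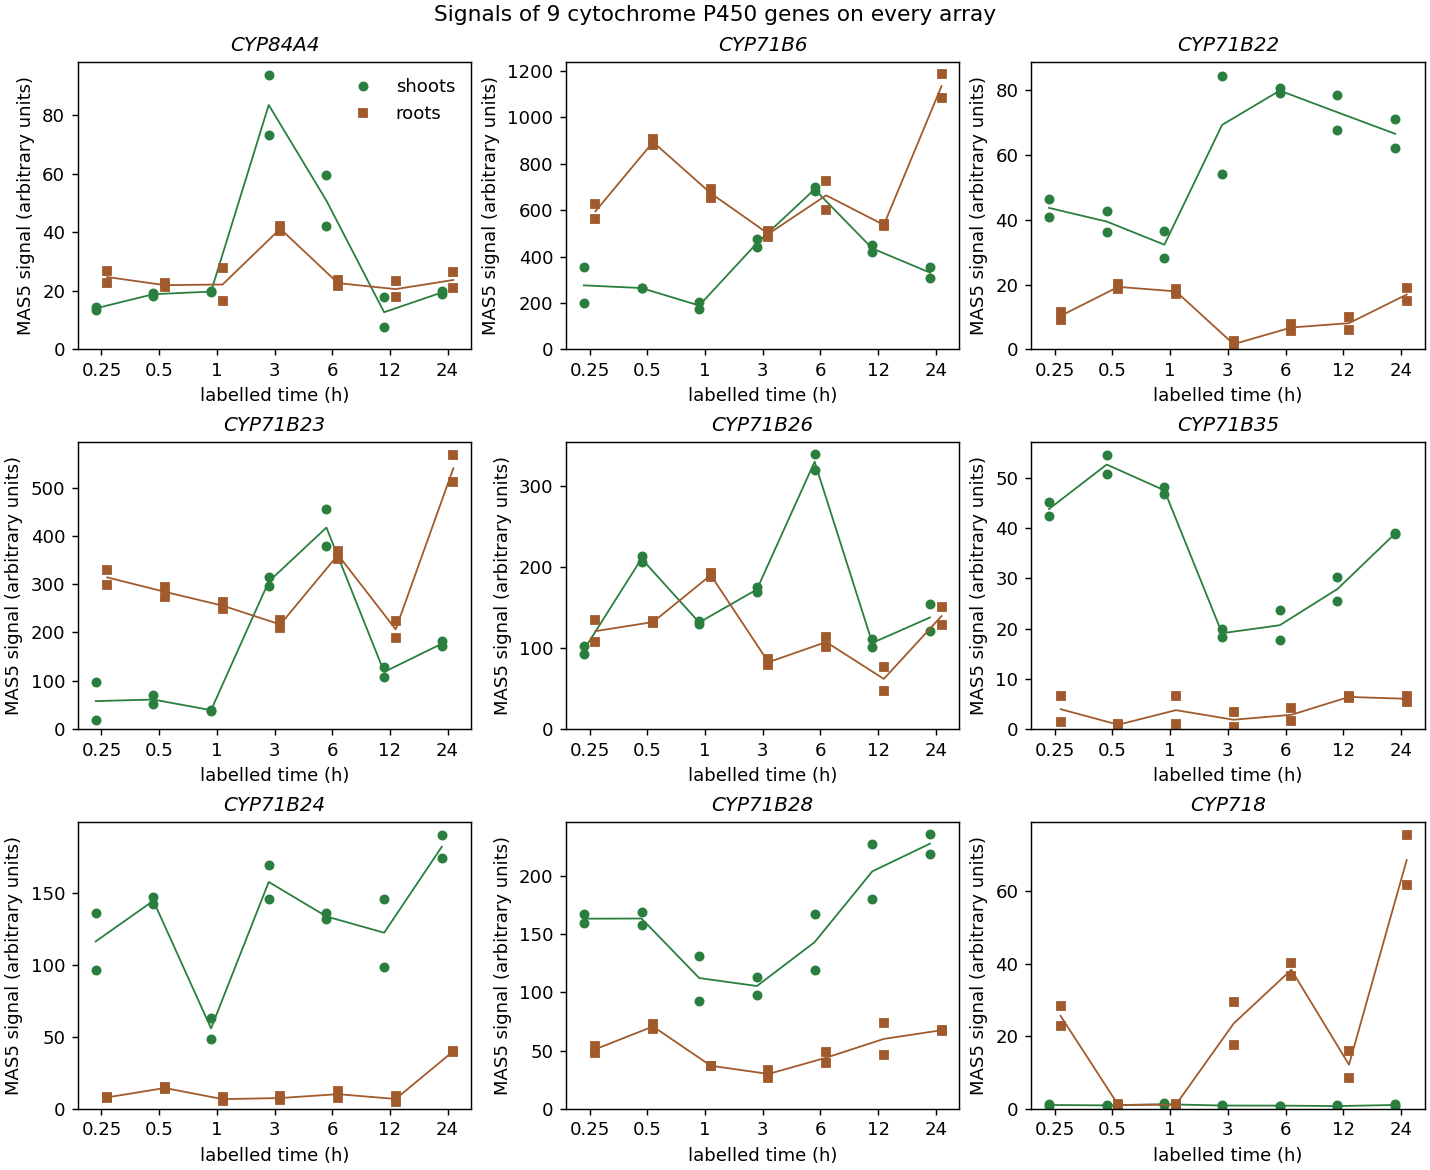
MAS5 signals (arbitrary units, linear axes from 0) of 9 P450 genes at the 7 labelled times, with 1 point per array, circles for shoots, squares for roots and lines through the means of 2 arrays. The shoot peaks at 3 or 6 h in CYP84A4, CYP71B6, CYP71B23 and CYP71B26 and the low root signals of CYP718 at 0.5 and 1 h can be read directly. CYP718 lay above the array median in roots at 24 h only.

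Of the 19 CYP71B genes measured, 11 lie in a single stretch of chromosome 3 that runs from CYP71B16 to CYP71B37 and holds 24 genes in RefSeq, 18 of them CYP71B. Of the 11, 8 passed the filter. In shoots at 6 h, 3 of these 8 were called higher and 3 lower, against 31.6% of all probe sets higher and 31.6% lower, shares close to the background. In chromosome order, CYP71B22, CYP71B23 and CYP71B26 were called higher, with CYP71B24 between them not called, and CYP71B34, CYP71B35 and CYP71B36, which follow CYP71B26 without another measured gene between them, were called lower. The call of CYP71B36 was lost in 3 of 4 omissions of 1 array and under 5 other settings. CYP71B37, the last, was not called. In roots none of the 8 was called at 6 h. These genes are close copies of each other, and whether a probe set also binds the transcript of a neighbour was not tested.

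**Figure D3:**
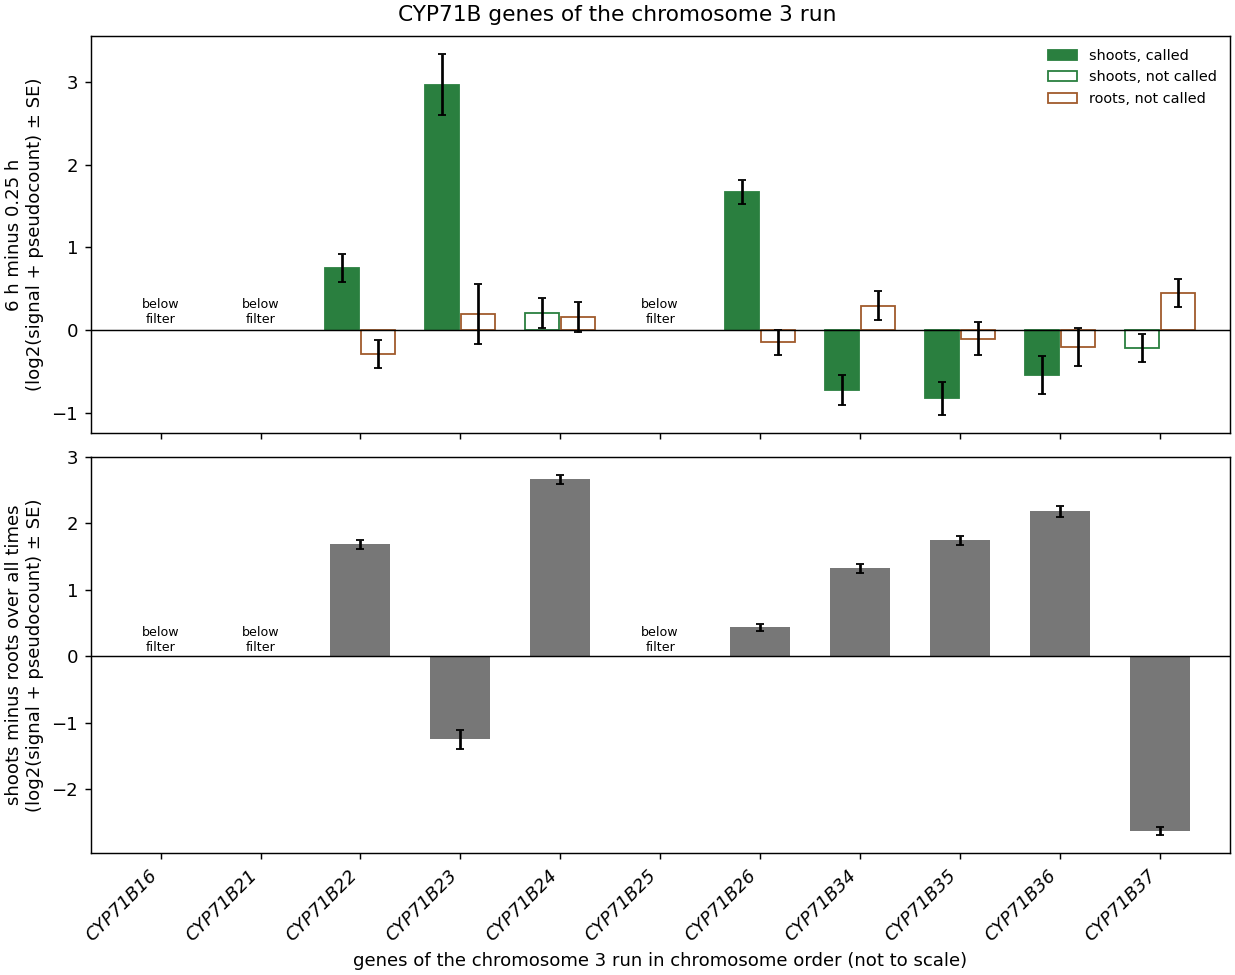
The 11 measured CYP71B genes of the chromosome 3 stretch in chromosome order (not to scale), with bars for the fitted value and its SE. The upper panel gives the change at 6 h against 0.25 h in shoots and roots, filled where called, and the lower panel the difference between shoots and roots over all times. The called shoot changes are positive from CYP71B22 to CYP71B26 and negative from CYP71B34 to CYP71B36.

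CYP71B23 (AT3G26210) had the largest fitted change of all the P450s here with 9.58 added, 2.97 in shoots at 6 h. With no pseudocount the change of CYP718 in roots at 0.5 h was larger, at -4.62, against 3.31 for CYP71B23. CYP71B23 in shoots gave signals of 97.5 and 18.01 at 0.25 h, 69.8 and 52.2 at 0.5 h, 40.1 and 37.9 at 1 h, 314 and 297 at 3 h, 379 and 455 at 6 h, 107 and 129 at 12 h and 182 and 171 at 24 h. The root arrays of CYP71B23 read 329 and 299 at 0.25 h, 273 and 295 at 0.5 h, 248 and 263 at 1 h, 225 and 208 at 3 h, 353 and 368 at 6 h, 224 and 189 at 12 h and 512 and 567 at 24 h. In shoots all 8 arrays from 3 h on were above both arrays at 0.25 h, and those at 3 and 6 h were above the others. CYP71B23 was higher by 2.53 ± 0.37 (adjusted p = 2.25e-05) at 3 h, by 2.97 ± 0.37 (adjusted p = 2.36e-06) at 6 h, by 1.23 ± 0.37 (adjusted p = 0.0115) at 12 h and by 1.78 ± 0.37 (adjusted p = 0.00202) at 24 h. Its 2 shoot arrays at 0.25 h, 97.5 and 18.01, lay far apart, and these sizes rest on them. Without replicate 2 of 0.25 h the changes were 1.56 at 3 h, 0.25 at 12 h and 0.80 at 24 h, with the call at 12 h lost (adjusted p = 0.178). Without replicate 1 they were 3.51, 2.21 and 2.75. At 6 h the change was 1.99 without replicate 2 of 0.25 h and 3.95 without replicate 1. The lower value is close to the 1.97 of CYP84A4 in shoots at 3 h, so the rank of CYP71B23 as the largest rests on 1 array. The call at 12 h was also lost without replicate 2 of 12 h (adjusted p = 0.0759) and in the fit of shoots alone. In roots no single time was called, and the signals lay between 189 at 12 h and 567 at 24 h. The shoot change exceeded the root change by 3.05 ± 0.52 (adjusted p = 2.27e-04) at 3 h, 2.77 ± 0.52 (adjusted p = 3.29e-04) at 6 h and 1.81 ± 0.52 (adjusted p = 0.0155) at 12 h. Without replicate 2 of the 0.25 h shoots the difference was 2.07 at 3 h, 1.79 at 6 h and 0.83 at 12 h, each still called, and without replicate 1 it was 2.79 at 12 h. The call at 12 h was lost without replicate 2 of the 12 h shoots or of the 12 h roots (adjusted p of 0.0551 to 0.0563).

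CYP71B26 (AT3G26290) was the one P450 called at 0.5 h in shoots, and it had 2 separate maxima there. In shoots the signals of CYP71B26 on replicates 1 and 2 were 92.9 and 102 at 0.25 h, 214 and 206 at 0.5 h, 129 and 134 at 1 h, 175 and 169 at 3 h, 339 and 319.6 at 6 h, 101 and 111 at 12 h and 121 and 154 at 24 h. CYP71B26 in roots gave signals of 134 and 107 at 0.25 h, 131 and 133 at 0.5 h, 187 and 192 at 1 h, 86.2 and 78.5 at 3 h, 101 and 113 at 6 h, 46.9 and 76.7 at 12 h and 128 and 150.2 at 24 h. The shoot arrays at 6 h were the highest, those at 0.5 h came next, and no array at a later time fell below the lower one at 0.25 h. In roots the arrays at 1 h were the highest and those at 12 h the lowest. In shoots CYP71B26 was higher by 1.04 ± 0.15 (adjusted p = 5.24e-05) at 0.5 h, by 0.76 ± 0.15 (adjusted p = 1.53e-04) at 3 h and by 1.66 ± 0.15 (adjusted p = 2.35e-09) at 6 h. The smaller rises at 1 h, 0.40 ± 0.15 (adjusted p = 0.0469), and at 24 h, 0.45 ± 0.15 (adjusted p = 0.0264), were less firm. That at 1 h was lost without any 1 of its 4 arrays (adjusted p of 0.0693 to 0.194) and under 4 other settings. That at 24 h was lost without replicate 1 of 0.25 h or replicate 2 of 24 h (adjusted p of 0.126 to 0.283, the change being 0.28 without the array of 24 h).

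In roots CYP71B26 was higher at 1 h, by 0.62 ± 0.15 (adjusted p = 0.00510), and lower at 3 h, with a change of -0.50 ± 0.15 (adjusted p = 0.0168), and at 12 h, with one of -0.89 ± 0.15 (adjusted p = 1.27e-04). The call at 1 h was lost without replicate 2 of 0.25 h or of 1 h (adjusted p of 0.0501 to 0.104). The call at 3 h was lost without replicate 1 of 0.25 h or replicate 2 of 3 h (adjusted p of 0.131 to 0.202). The change at 12 h was -0.59 without replicate 1 of 12 h, still called. The shoot change exceeded the root change by 0.91 ± 0.21 (adjusted p = 0.0108) at 0.5 h, by 1.26 ± 0.21 (adjusted p = 5.81e-05) at 3 h, by 1.82 ± 0.21 (adjusted p = 3.72e-07) at 6 h and by 1.005 ± 0.21 (adjusted p = 8.74e-04) at 12 h. The first of these was lost without replicate 1 of the 0.25 h roots (adjusted p = 0.0654).

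CYP71B22 (AT3G26200) changed in opposite directions in the 2 tissues at 3 h. The shoot arrays of CYP71B22 read 40.9 and 46.4 at 0.25 h, 42.7 and 36.3 at 0.5 h, 28.1 and 36.5 at 1 h, 54.1 and 84.6 at 3 h, 80.7 and 79.1 at 6 h, 78.6 and 67.9 at 12 h and 62.1 and 71.1 at 24 h. In roots the signals of CYP71B22 on replicates 1 and 2 were 9.17 and 11.5 at 0.25 h, 20.0 and 18.5 at 0.5 h, 18.7 and 17.1 at 1 h, 0.758 and 2.41 at 3 h, 5.52 and 7.93 at 6 h, 10.05 and 6.10 at 12 h and 19.0 and 14.8 at 24 h. In shoots every array from 3 h on was above both arrays at 0.25 h, whereas in roots both arrays at 3 h were below all 12 others. In shoots it was higher by 0.75 ± 0.17 (adjusted p = 6.64e-04) at 6 h. It was also higher by 0.54 ± 0.17 (adjusted p = 0.0118) at 3 h, by 0.64 ± 0.17 (adjusted p = 0.00445) at 12 h and by 0.52 ± 0.17 (adjusted p = 0.0309) at 24 h. The call at 3 h was lost without replicate 1 of 0.25 h or replicate 2 of 3 h (adjusted p of 0.0769 to 0.273), with a change of 0.26 without that array of 3 h and of 0.82 without the other. The call at 12 h was lost without replicate 1 of 12 h (adjusted p = 0.0511) and that at 24 h without any 1 of its 4 arrays (adjusted p of 0.0519 to 0.184). With no pseudocount all 4 shoot calls were lost, although the changes were no smaller, at 0.63, 0.87, 0.74 and 0.61 for 3, 6, 12 and 24 h (adjusted p of 0.0562 to 0.275). In roots it was lower at 3 h, with a change of -0.84 ± 0.17 (adjusted p = 0.00117). That change was -2.92 with no pseudocount and -0.27 with the pseudocount at the median signal, called in both.

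The shoot change of CYP71B22 minus its root change was -0.82 ± 0.24 (adjusted p = 0.0261) at 1 h, and the shoot change was the higher one by 1.38 ± 0.24 (adjusted p = 1.36e-04) at 3 h, by 1.04 ± 0.24 (adjusted p = 0.00130) at 6 h and by 0.81 ± 0.24 (adjusted p = 0.0157) at 12 h. The call at 1 h was lost without any 1 of 5 of its 8 arrays (adjusted p of 0.0579 to 0.0978) and that at 12 h without any 1 of 4 of its 8 arrays (adjusted p of 0.0503 to 0.0842). With no pseudocount the calls at 1 and 12 h were lost too. Root signals of this gene were at most 20.0, those of a dim probe set.

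CYP71B34, CYP71B35 and CYP71B36 were lower in shoots at 6 h. CYP71B35 in shoots gave signals of 42.4 and 45.3 at 0.25 h, 54.5 and 50.9 at 0.5 h, 48.3 and 46.8 at 1 h, 18.3 and 19.9 at 3 h, 17.7 and 23.6 at 6 h, 25.5 and 30.3 at 12 h and 39.1 and 38.8 at 24 h. In roots CYP71B35 had 0.364 to 6.67 on all arrays, and no change was called there. All its shoot arrays from 3 h on were below both arrays at 0.25 h, those at 24 h by the least. CYP71B35 (AT3G26310) was lower, with changes of -0.90 ± 0.20 (adjusted p = 6.80e-04) at 3 h, -0.83 ± 0.20 (adjusted p = 0.00103) at 6 h and -0.51 ± 0.20 (adjusted p = 0.0387) at 12 h. The call at 12 h was lost without any 1 of its 4 arrays (adjusted p of 0.0629 to 0.194), and all 3 calls were lost with no pseudocount. Its shoot change minus its root change was -0.72 ± 0.28 (adjusted p = 0.0383) at 6 h, a call lost without any 1 of 5 of its 8 arrays. At 12 h the difference was -0.78 ± 0.28 (adjusted p = 0.0436), a call lost without any 1 of 7 of its 8 arrays. Both calls were also lost with no pseudocount, and that at 12 h with no filter or with arrays centred on their median.

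CYP71B34 (AT3G26300) had 75.4 and 68.8 in shoots at 6 h, against 108 and 146 at 0.25 h. These were its 2 lowest shoot arrays, the others at the later times reaching from 111 to 196. At 6 h it was lower, with a change of -0.73 ± 0.18 (adjusted p = 0.00132), and no other time was called in either tissue. In roots it had 30.8 to 65.4. Its shoot change minus its root change was -1.02 ± 0.25 (adjusted p = 0.00216) at 6 h.

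CYP71B36 (AT3G26320) was lower at 6 h and higher at 24 h. The shoot arrays of CYP71B36 read 39.0 and 48.2 at 0.25 h, 91.3 and 52.1 at 0.5 h, 27.4 and 22.7 at 1 h, 29.9 and 30.1 at 3 h, 24.6 and 28.9 at 6 h, 67.5 and 57.8 at 12 h and 94.2 and 92.9 at 24 h. In roots it had 0.429 to 7.10 on all arrays. Both shoot arrays at 24 h were above every other shoot array. At 6 h it was lower, with a change of -0.55 ± 0.23 (adjusted p = 0.0459), a call lost without replicate 2 of 0.25 h or either array of 6 h (adjusted p of 0.0716 to 0.217) and under 5 other settings. At 24 h it was higher by 0.96 ± 0.23 (adjusted p = 0.00421), a call kept in each omission of 1 array and lost with no pseudocount. The shoot change at 24 h exceeded the root change by 1.04 ± 0.33 (adjusted p = 0.0403), a call lost without any 1 of 5 of its 8 arrays (adjusted p of 0.0833 to 0.225) and under 4 other settings.

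CYP71B24 (AT3G26230) had its lowest shoot signals at 1 h and its highest root signals at 24 h. In shoots the signals of CYP71B24 on replicates 1 and 2 were 136 and 96.4 at 0.25 h, 147 and 142 at 0.5 h, 63.1 and 48.6 at 1 h, 169 and 146 at 3 h, 136 and 132 at 6 h, 146 and 98.6 at 12 h and 174 and 190.5 at 24 h. CYP71B24 in roots gave signals of 8.31 and 7.503 at 0.25 h, 14.02 and 14.8 at 0.5 h, 5.29 and 8.03 at 1 h, 6.06 and 8.83 at 3 h, 7.63 and 12.6 at 6 h, 4.53 and 9.05 at 12 h and 40.5 and 39.6 at 24 h. The shoot arrays at 1 h were below all 12 others, and the root arrays at 24 h were above all 12 others. At 1 h it was lower in shoots, with a change of -0.93 ± 0.18 (adjusted p = 4.67e-04). At 24 h it was higher in roots by 1.504 ± 0.18 (adjusted p = 3.72e-06), although these 2 arrays still lay below their array's median. At 24 h in shoots it was higher by 0.62 ± 0.18 (adjusted p = 0.0142), a call lost without replicate 2 of 0.25 h, where the change was 0.39, or replicate 2 of 24 h (adjusted p of 0.0969 to 0.200), and with no pseudocount. Its shoot change minus its root change was -0.82 ± 0.26 (adjusted p = 0.0338) at 1 h and -0.88 ± 0.26 (adjusted p = 0.0261) at 24 h. These calls were lost without any 1 of 5 and of 6 of their 8 arrays, with adjusted p of 0.0662 to 0.160 and of 0.0529 to 0.121. The call at 1 h was also lost with no pseudocount (-0.77, adjusted p = 0.277). The difference at 24 h was -0.21 (adjusted p = 0.436) with the pseudocount at the median signal and -1.67 with none. The root change at 24 h was 0.72 and 2.34 under these settings, called in both.

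CYP71B37 (AT3G26330), the last gene of the stretch, was high in roots. The root arrays of CYP71B37 read 89.98 and 102 at 0.25 h, 133 and 126 at 0.5 h, 81.7 and 95.2 at 1 h, 128 and 141 at 3 h, 129 and 140.1 at 6 h, 123 and 181 at 12 h and 95.6 and 100.3 at 24 h. In shoots it had 6.73 to 14.9 on all arrays, below every root array. It was higher in roots by 0.59 ± 0.17 (adjusted p = 0.0184) at 12 h. That call was lost without replicate 1 of 0.25 h or replicate 2 of 12 h (adjusted p of 0.145 to 0.282, the change being 0.33 without the array of 12 h), and with no pseudocount. Its shoot change minus its root change was -0.67 ± 0.25 (adjusted p = 0.0296) at 6 h and -0.67 ± 0.25 (adjusted p = 0.0463) at 12 h. Each call was lost without any 1 of 5 of its 8 arrays, with no pseudocount and after quantile normalization. That at 12 h was also lost with no filter.

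Outside the chromosome 3 stretch, CYP71B28 and CYP71B29 are neighbours on chromosome 1, in a run of 4 CYP71B genes of which 3 were measured. In shoots the signals of CYP71B28 on replicates 1 and 2 were 167 and 159 at 0.25 h, 169 and 158 at 0.5 h, 132 and 92.98 at 1 h, 97.5 and 113 at 3 h, 119 and 167 at 6 h, 227 and 181 at 12 h and 219 and 236 at 24 h. CYP71B28 in roots gave signals of 54.0 and 48.3 at 0.25 h, 72.5 and 68.9 at 0.5 h, 36.9 and 37.0 at 1 h, 26.7 and 33.1 at 3 h, 39.3 and 48.4 at 6 h, 45.9 and 74.1 at 12 h and 67.1 and 67.9 at 24 h. In both tissues the arrays at 3 h lay below those at 0.25 h, and in shoots those at 12 and 24 h lay above them. CYP71B28 (AT1G13090) was lower in shoots, with changes of -0.52 ± 0.18 (adjusted p = 0.0311) at 1 h and -0.59 ± 0.18 (adjusted p = 0.00777) at 3 h, and lower in roots at 3 h, with one of -0.63 ± 0.18 (adjusted p = 0.0128). The shoot call at 1 h was lost without either array of 0.25 h or replicate 2 of 1 h (adjusted p of 0.0742 to 0.350), the change being -0.29 without that array of 1 h. The shoot call at 3 h was lost without replicate 1 of 3 h (adjusted p = 0.0811). The root call was lost without replicate 1 of 0.25 h or of 3 h (adjusted p of 0.0977 to 0.126). The test of the difference between tissues called none of its changes. CYP71B29 (AT1G13100) had 15.5 to 48.5 in shoots and 48.3 to 81.3 in roots. The F test over all times called it in shoots (adjusted p = 0.00463), but no single time was called in either tissue.

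CYP71B5 (AT3G53280) lies on chromosome 3 in a run with CYP71B30P and CYP71B31, both of which were below the filter. The shoot arrays of CYP71B5 read 89.4 and 74.9 at 0.25 h, 135 and 98.7 at 0.5 h, 81.2 and 53.6 at 1 h, 87.6 and 85.7 at 3 h, 98.4 and 83.8 at 6 h, 124 and 126 at 12 h and 129 and 131 at 24 h. In roots it had 0.659 to 5.08. The shoot arrays at 12 and 24 h were above both arrays at 0.25 h, and so were those at 0.5 h. It was higher by 0.56 ± 0.17 (adjusted p = 0.00952) at 12 h and by 0.61 ± 0.17 (adjusted p = 0.0105) at 24 h. The call at 12 h was lost without replicate 2 of 0.25 h or of 12 h (adjusted p of 0.0512 to 0.0901), and that at 24 h without replicate 2 of 0.25 h or of 24 h (adjusted p of 0.0575 to 0.0968). Both were lost with no pseudocount.

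CYP718 (AT2G42850), the one P450 of clan 85 measured, was called at 4 times in roots and at none in shoots, where its signals were 0.571 to 1.55. In roots the signals of CYP718 on replicates 1 and 2 were 28.4 and 22.9 at 0.25 h, 0.916 and 1.17 at 0.5 h, 1.01 and 1.23 at 1 h, 29.3 and 17.7 at 3 h, 40.1 and 36.6 at 6 h, 15.9 and 8.40 at 12 h and 61.8 and 75.5 at 24 h. All 4 root arrays at 0.5 and 1 h were as low as the shoot arrays, and both at 24 h were the highest. It passed the filter through the 2 root arrays at 24 h only, and all its other root arrays, those at 0.25 h included, lay below their array's median. The signals at 0.5 and 1 h, 0.916 to 1.23, lie at the level of the shoot arrays, and the sizes of the changes are set by the number added. It was lower, with changes of -1.72 ± 0.18 (adjusted p = 4.71e-06) at 0.5 h and -1.71 ± 0.18 (adjusted p = 6.72e-07) at 1 h, and higher by 1.15 ± 0.18 (adjusted p = 1.40e-04) at 24 h. At 12 h it was lower, with a change of -0.71 ± 0.18 (adjusted p = 0.00820), a call lost without replicate 1 of 0.25 h or replicate 2 of 12 h (adjusted p of 0.0964 to 0.150, the change being -0.46 without the array of 12 h). With no pseudocount the changes at 0.5 and 1 h were -4.62 and -4.52, and the calls at 12 and 24 h were lost. With the pseudocount at the median signal the changes were -0.66, -0.65, -0.33 and 0.71 at 0.5, 1, 12 and 24 h, all called. The shoot change minus the root change was 1.71 ± 0.26 (adjusted p = 5.06e-04) at 0.5 h, 1.74 ± 0.26 (adjusted p = 8.63e-05) at 1 h and -1.15 ± 0.26 (adjusted p = 0.00491) at 24 h.

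CYP78A9 (AT3G61880) belongs to a subfamily that promotes organ growth, and is known for its effect on fruit and seed size. CYP78A9 in shoots gave signals of 32.7 and 37.7 at 0.25 h, 54.5 and 41.3 at 0.5 h, 18.3 and 21.2 at 1 h, 21.1 and 19.6 at 3 h, 23.7 and 24.2 at 6 h, 26.6 and 26.4 at 12 h and 52.4 and 48.3 at 24 h. In roots it had 0.797 to 23.5. The lowest shoot arrays were those at 1 and 3 h and the highest those at 0.5 and 24 h. No single time was called in either tissue, and the F test over all times called it in shoots (adjusted p = 0.0130) but not in roots.

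The 2 cyclophilins changed little. CYP71 (AT3G44600), a nuclear cyclophilin with WD40 repeats that acts on chromatin, had 123 and 127 in shoots at 6 h and 111 and 119 at 12 h, against 89.3 and 84.5 at 0.25 h. It was higher by 0.48 ± 0.10 (adjusted p = 2.47e-04) at 6 h and by 0.37 ± 0.10 (adjusted p = 0.00450) at 12 h. CYP59 (AT1G53720), a cyclophilin with an RNA recognition motif, had 47.7 and 39.1 in shoots at 3 h and 45.5 and 38.9 at 6 h, against 26.6 and 32.6 at 0.25 h. It was higher by 0.43 ± 0.14 (adjusted p = 0.0128) at 3 h and by 0.40 ± 0.14 (adjusted p = 0.0157) at 6 h. The call at 3 h was lost without replicate 1 of 0.25 h or of 3 h (adjusted p of 0.120 to 0.146), and that at 6 h without replicate 1 of 0.25 h or of 6 h (adjusted p of 0.131 to 0.140). Neither was called in roots at any time.

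Most P450s differed between shoots and roots over all times, as did most probe sets. Of the 15, 9 were higher in shoots and 5 lower, while 91.3% of all probe sets were called, 31.4% as higher and 59.9% as lower. Among the 9, CYP71B5, CYP71B24, CYP71B36, CYP71B35, CYP71B22 and CYP78A9 passed the filter on shoot arrays alone. Among the 5, CYP71B37 and CYP718 passed it on root arrays alone. For these genes a difference between the tissues was partly set by the filter, so the split is not read against the background. The median difference of all probe sets was -0.28, and it was -0.17 after quantile normalization and -0.05 with arrays centred on their median. With the cyclophilins, 9 genes were higher and 7 lower, and 10 were higher and 6 lower under either of those scalings.

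For 7 P450s all 14 shoot arrays lay above all 14 root arrays, for 1 all lay below, and for 7 the tissues overlapped. Among the genes without overlap, CYP71B5, CYP71B24, CYP71B36, CYP71B35 and CYP71B22 passed the filter on shoot arrays alone and CYP71B37 on root arrays alone. That favoured a separation of the tissues. The share of all probe sets without overlap was not counted, so no excess among the P450s is read from these counts. CYP71B5 had a median signal of 93.9 in shoots and 2.71 in roots and differed by 3.13 ± 0.06 (adjusted p = 2.91e-22), the largest difference with 9.58 added. Its root signals lay below the array median on all 14 arrays, and the difference was 5.43 with no pseudocount and 1.66 with the pseudocount at the median signal. The same 2 settings gave CYP71B24 3.56 and 1.63, CYP71B36 4.56 and 1.004, CYP71B35 3.72 and 0.76 and CYP71B22 2.63 and 0.89, each still called, so the order among these genes depends on the number added. CYP71B24 had a median of 139 in shoots and 8.57 in roots and differed by 2.66 ± 0.07 (adjusted p = 2.56e-20). CYP71B36, at 43.6 in shoots and 2.53 in roots, differed by 2.18 ± 0.09 (adjusted p = 1.53e-16). CYP71B35 followed with 1.74 ± 0.07 (adjusted p = 5.10e-16), CYP71B22 with 1.69 ± 0.06 (adjusted p = 6.22e-17), CYP71B28 with 1.47 ± 0.07 (adjusted p = 1.86e-15) and CYP71B34 with 1.32 ± 0.07 (adjusted p = 1.77e-14). These are the 7 genes without overlap. In CYP78A9 (1.15 ± 0.12, adjusted p = 5.99e-09) and CYP71B26 (0.44 ± 0.05, adjusted p = 1.10e-07) the arrays of the tissues overlapped. CYP78A9 had 18.3 to 54.5 in shoots and 0.797 to 23.5 in roots. The overlap of CYP71B26 was broad, with 92.9 to 339 in shoots and 46.9 to 192 in roots. At 0.25 and 1 h both its root arrays were above both its shoot arrays.

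On the root side, CYP71B37 had a median of 12.0 in shoots and 124 in roots and differed by -2.62 ± 0.07 (adjusted p = 1.55e-20), with no overlap. CYP718 differed by -1.36 ± 0.07 (adjusted p = 1.50e-14), although its root arrays at 0.5 and 1 h were at the shoot level. CYP71B23 had a median of 118 in shoots and 284 in roots and differed by -1.25 ± 0.14 (adjusted p = 1.71e-07). At 3 and 6 h its shoot arrays were nevertheless above its root arrays. CYP71B6 differed by -0.96 ± 0.06 (adjusted p = 1.04e-12) and CYP71B29 by -0.80 ± 0.07 (adjusted p = 8.63e-11). In the fit reported CYP84A4 was not called, at 0.04 (adjusted p = 0.565), with its shoot signals higher than its root signals at 3 and 6 h and its shoot mean lower at the other times. It was called higher in shoots after quantile normalization (0.25, adjusted p = 0.00265) and with arrays centred on their median (0.28, adjusted p = 0.00117). Within the chromosome 3 stretch, measured neighbours lay on opposite sides, CYP71B22 and CYP71B24 higher in shoots with CYP71B23 between them lower, and CYP71B36 higher in shoots beside CYP71B37 lower.

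**Figure D4:**
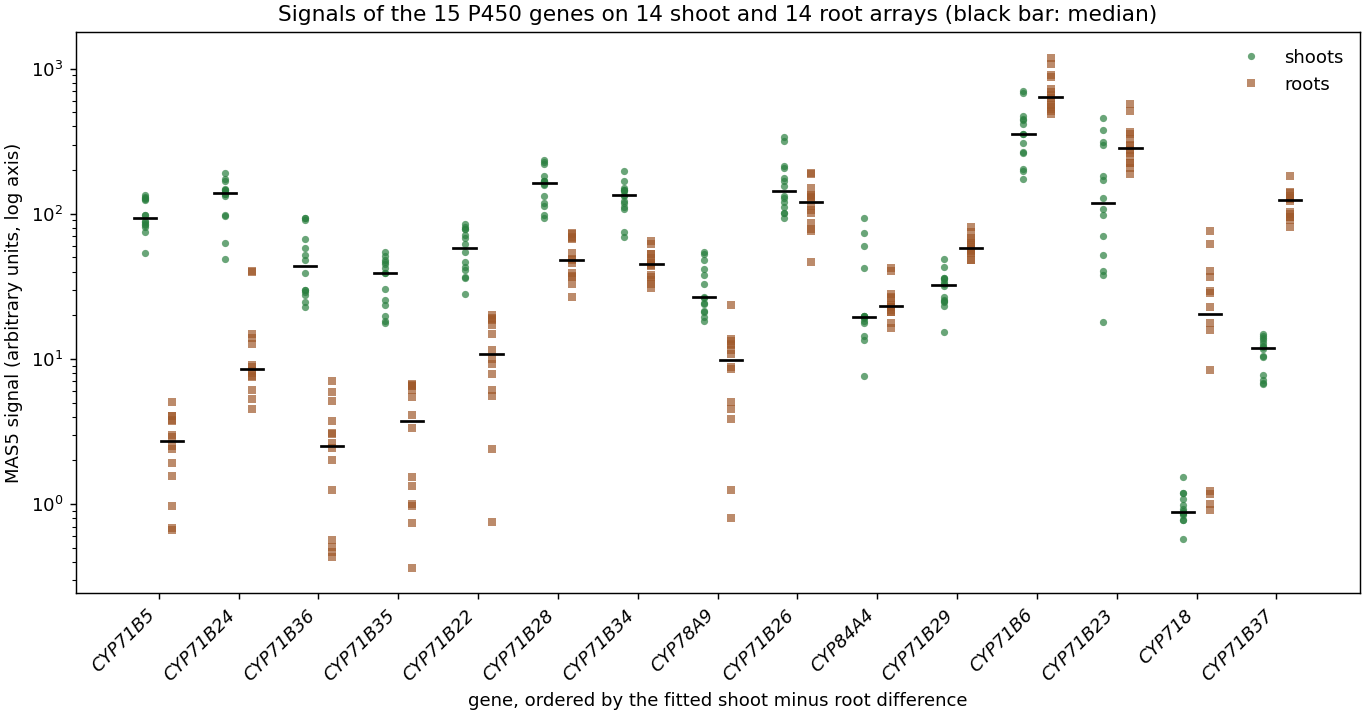
MAS5 signals (arbitrary units, log axis) of the 15 P450 genes on the 14 shoot arrays (circles) and the 14 root arrays (squares), ordered by the fitted difference of shoots minus roots, with a black bar at each median. The clouds are apart in the 7 leftmost genes and in CYP71B37 at the right edge.

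The change from 0.25 h itself differed between shoots and roots for several P450s. The interaction contrasts called 2 of 15 P450s at 0.5 h (6.12% of all probe sets), 3 at 1 h (14.2%), 5 at 3 h (36.1%), 8 at 6 h (48.7%), 6 at 12 h (26.5%) and 3 at 24 h (12.4%). Leaving out 1 array, with the cyclophilins counted, gave 1 to 3 calls at 0.5 h, 1 to 4 at 1 h, 5 to 6 at 3 h, 7 to 9 at 6 h, 2 to 6 at 12 h and 1 to 4 at 24 h, and with no pseudocount 1, 3 and 1 were called at 1, 12 and 24 h, so no share was read as standing above the background. At 3 h all 5 were called as higher in shoots relative to roots, as were 17.4% of all probe sets against 18.8% lower, and they were CYP71B23, CYP84A4, CYP71B22, CYP71B26 and CYP71B6. At 6 h the same 5 were again called in that direction, and CYP71B34, CYP71B35 and CYP71B37 in the other. CYP84A4 was tested only through its shoot arrays at 3 and 6 h, so its direction there was partly set by the filter. CYP71B22 passed the filter on shoot arrays alone. The split at 3 and 6 h is therefore not read against the background. At 12 h CYP71B23, CYP71B26, CYP71B6 and CYP71B22 were called as higher in shoots relative to roots, and CYP71B35 and CYP71B37 as lower.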

How the data were processed

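The deposited values were signal intensities, 1 per probe set and array, computed by the authors with MAS5 per the submitters' processing notes, and its version and settings are not given in the sources used here. On each array, controls included, the mean after removing the lowest and highest 2% was 99.96 to 99.97, so the values had been scaled to a common level. Detection calls were not used here.

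Of 22810 probe sets, 64 controls were left out. limma 3.58.1 (R 4.3.3) was fitted to log2(signal + 9.58), the 25th percentile of all signals, of the 14806 probe sets that exceeded the median of the array on 2 or more arrays, with 14 group means and the trend and robust options. Each tissue had 7 times with 2 arrays each. The number of arrays limits the precision. P-values were 2-sided and adjusted by Benjamini-Hochberg within each comparison. On simulated data, in which few probe sets changed and each by 2-fold or more, the fit recovered most of the larger changes. Smaller changes, and comparisons in which most probe sets change, were not simulated. Alternatives were the pseudocount, scaling, filter, tissues fitted alone, variance options, a replicate block and leaving out each array.

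All 26 symbols matched RefSeq. Genes are named by this rule: for each time the 3 largest rises and 2 largest falls called with arrays beyond those at 0.25 h, for each tissue difference the largest in either direction, the 5 largest in either direction between tissues, the 12 highest F values per tissue, and role-list genes. CYP59 and the members below the filter are named outside it. CYP718 has a symbol of the cyclophilin form but is a P450 by its RefSeq names. The genes and lists were chosen with earlier results of these data known. Sequences were not used here.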

Additional observations from a re-analysis of the deposited data

Results flagged for a closer look

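These changes from 0.25 h differed between the tissues in an interaction contrast of the limma fit at an adjusted p under 0.05. Each value is the shoot change minus the root change on the log2(signal + 9.58) scale. CYP71B23 differed by 3.05 at 3 h, 2.77 at 6 h and 1.81 at 12 h, the last call being lost in 2 of 8 omissions. CYP71B26 differed by 0.91 at 0.5 h, 1.26 at 3 h, 1.82 at 6 h and 1.005 at 12 h, the call at 0.5 h being lost in 1 of 8 omissions of 1 array. CYP84A4 differed by 1.40 at 3 h and 1.43 at 6 h. CYP71B22 differed by -0.82 at 1 h, 1.38 at 3 h, 1.04 at 6 h and 0.81 at 12 h, the calls at 1 and 12 h being lost in 5 and 4 of 8 omissions and with no pseudocount. CYP71B6 differed by 1.02 at 3 h, 1.20 at 6 h and 0.84 at 12 h. CYP718 differed by 1.71 at 0.5 h, 1.74 at 1 h and -1.15 at 24 h, its shoot signals being near 1 throughout. With no pseudocount the first 2 were 4.46 and 4.74 and the call at 24 h was lost, and with the pseudocount at the median signal they were 0.65, 0.66 and -0.71.

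For the genes of the far end of the chromosome 3 stretch, CYP71B34 differed by -1.02 at 6 h, CYP71B35 by -0.72 at 6 h and -0.78 at 12 h, CYP71B36 by 1.04 at 24 h and CYP71B37 by -0.67 at 6 h and -0.67 at 12 h. Without replicate 1 of the 0.25 h roots the CYP71B35 differences were -0.44 and -0.50, without replicate 1 of the 0.25 h shoots the CYP71B37 differences were -0.39 and -0.39, without replicate 2 of the 12 h roots its difference at 12 h was -0.41, and without replicate 2 of the 0.25 h roots the CYP71B36 difference was 0.68. CYP71B35 lost its calls in 5 and 7 of 8 omissions, CYP71B36 in 5, and CYP71B37 in 5 at each time. With no pseudocount all calls of these 3 genes were lost too. Quantile normalization also ended the call of CYP71B36 and both of CYP71B37. Centring ended those of CYP71B36 and of CYP71B35 at 12 h. With no filter the call of CYP71B36 and those of CYP71B35 and CYP71B37 at 12 h were lost. CYP71B24 differed by -0.82 at 1 h and -0.88 at 24 h, calls lost in 5 and 6 of 8 omissions. The one at 1 h was also lost with no pseudocount, and the one at 24 h with the pseudocount at the median signal (-0.21, adjusted p = 0.436). The cyclophilins CYP71 and CYP59 differed by 0.53 and 0.50 at 6 h, the CYP59 call being lost without any 1 of 5 of its 8 arrays (adjusted p of 0.0584 to 0.173). The CYP59 call was also lost after quantile normalization or centring, with no filter and with a replicate block. No explanation of these differences was tested.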

How the results depend on the processing

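Of 94 calls of single genes at a time, between tissues or of tissue differences, 63 held under all 9 other settings that could be applied, 58 in every omission of 1 array and 51 in both, and none was reversed. With no pseudocount 26 calls were lost, with quantile normalization 8, with no filter 7, with arrays centred on their median 6, with each tissue fitted alone 3 of 49 and with the pseudocount at the median 1. The 75th percentile filter left 9 of the 17 genes and kept all 55 of their calls. CYP59 between tissues was no longer called after quantile normalization (-0.05, adjusted p = 0.415) or centring (-0.04, adjusted p = 0.541).

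Counts of genes called, over the 17 genes with the cyclophilins, stayed within 1.5 times in 157 of 182 comparisons of settings. The pseudocount at the median gave 3 in shoots at 0.5 h (1 in the fit reported) and 2 in roots at 6 h (0). No pseudocount gave 3 in shoots at 12 h (6) and 2 at 24 h (6), 1 in roots at 12 h (3), and 1, 3 and 1 tissue differences at 1, 12 and 24 h (3, 6 and 3). The 75th percentile filter, which tests fewer genes, gave 4 and 5 in shoots at 3 and 6 h (8 and 10), 1, 1 and 2 in roots at 0.5, 1 and 3 h (2, 2 and 4), and 1, 1, 3, 6 and 1 tissue differences at 0.5, 1, 3, 6 and 24 h (2, 3, 5, 10 and 3). It gave 9 genes for shoots against roots (16) and 8 for the F test in shoots (15). With each tissue fitted alone, 8, 1 and 5 were called in roots at 3, 6 and 12 h (4, 0 and 3), and centring and the fit without trend and robust options each called 1 in roots at 6 h (0). Except for the fewer genes of the filter, the cause was not tested.

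Leaving out 1 array gave 1 to 4, 3 to 3, 6 to 8, 8 to 10, 3 to 5 and 2 to 5 calls in shoots at 0.5, 1, 3, 6, 12 and 24 h, and 1 to 1, 1 to 2, 1 to 3, 0 to 0, 1 to 3 and 3 to 5 in roots. Tissue differences numbered 1 to 3, 1 to 4, 5 to 6, 7 to 9, 2 to 6 and 1 to 4. Shoots against roots stayed at 16, the F test at 15 to 16 in shoots and 7 to 10 in roots.

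With centring, 47.1% of the calls over all probe sets were higher for shoots against roots (34.4% in the fit reported), 60.7% in roots at 6 h (49.9%) and 64.3% in roots at 24 h (49.4%). Deviations of arrays with the same replicate number correlated at -0.22 to 0.11 between times of shoots, -0.12 to 0.22 between times of roots and -0.07 to 0.11 between tissues. No shared effect of the number was thus seen. Whether arrays of the same number came from the same plants cannot be told from these values. With the number as a replicate block 91 of 94 calls held, CYP71B26 in shoots at 1 h (adjusted p = 0.0518), CYP71B36 in shoots at 6 h (0.0526) and the CYP59 tissue difference at 6 h (0.0523) being lost, and no count moved beyond 1.5 times.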

Other observations

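A probe set that matches both CYP71B19 and CYP71B20, which lie in the chromosome 3 stretch on the side of CYP71B22, falls outside the rule of 1 annotated gene. Its shoot signals on replicates 1 and 2 were 274 and 216 at 0.25 h, 269 and 249 at 0.5 h, 225 and 218 at 1 h, 224 and 196 at 3 h, 606 and 558 at 6 h, 433 and 440.3 at 12 h and 277 and 299 at 24 h. In roots it had 2.17 to 15.6. It was higher in shoots by 1.23 ± 0.17 (limma adjusted p = 2.35e-06) at 6 h and by 0.82 ± 0.17 (adjusted p = 4.91e-04) at 12 h, the 6 h direction being that of CYP71B22, CYP71B23 and CYP71B26. In roots it was higher by 0.79 at 0.5 h, 0.66 at 12 h and 0.70 at 24 h (adjusted p of 0.0046, 0.0092 and 0.0080), all at low signals. Between the tissues it differed by 4.15 ± 0.07 (adjusted p = 2.43e-24). In the fit reported, that was more than for any P450 with a probe set of its own. The root signals of this shared probe set were low, so the size of its difference depends on the number added. Its place in the order was not tested with another pseudocount or with none. Which of the 2 genes gave the signal cannot be told from this probe set.

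When the filter on low signals was dropped, 2 of the 9 dim P450s were called between the tissues, CYP71B31 at -0.21 (limma adjusted p = 0.00598) and CYP51G2 at -0.40 (adjusted p = 0.00105). Both lay below the median on all 28 arrays and the median over all probe sets in the filtered fit was -0.28, so no direction between the tissues was read from these values.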
